A study of Mus musculus with 25 samples.

Results

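Ligilactobacillus is a genus of lactic acid bacteria, and in these mouse feces it was made up of 10 amplicon sequence variants (ASVs, distinct 16S rRNA gene sequences left after read errors are removed). They were found by the genus field of the deposited taxonomy, and they were 10 of the 1555 ASVs in the table. They held 63445 of 300831 counts, or 21.1%, and at least some of them were seen in all 25 libraries. All 10 carried the species name Ligilactobacillus murinus, so the genus and its 1 named species are the same counts here. The members are called variants 1 to 10 below, in order of their total counts, and variants 1 to 6 were among the 11 most abundant ASVs of the whole table.

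The counts come from PacBio long reads of the whole 16S rRNA gene, amplified from feces of C57BL/6 mice, with 5 libraries in each of 5 groups. The labels name a Sham group, an OVX group, and further OVX groups given GEX (OVX+GEX), PBS (OVX+PBS) or FMT (OVX+FMT). The design text describes estrogen-deficient mice with or without a traditional medicine, and its title asks about osteoporosis, the gut microbiota and the metabolite TMAO. OVX is the usual abbreviation of ovariectomy, PBS of a buffered saline and FMT of fecal microbiota transplantation, while GEX is not spelled out. All groups but Sham carried OVX, and Sham had neither OVX nor an added agent in its label. Ages, doses, durations, cages and the donors of the transplant are not given in the labels, and the sex field reads male for every sample, which is at odds with ovariectomy. The libraries are labelled as separate samples, and whether each came from its own mouse is not stated, so a p-value here measures only the spread among libraries.

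Ligilactobacillus species ferment sugars mainly to lactic acid and tolerate acid well. Ligilactobacillus murinus is a common resident of the rodent gut and is recovered from feces in high numbers. A bacterial genome usually holds several copies of the 16S rRNA gene, and the copies may differ by a few bases, so 1 strain can give more than 1 ASV and different strains can share one. The sequences of the ASVs were not used here, so the variants are compared by their counts alone.

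Library totals ran from 8498 to 22404 counts with a median of 10123, and 3 libraries lay over 20000. Across the 25 libraries the share of Ligilactobacillus had a Pearson r of -0.04 and a Spearman rho of -0.06 with the library total, a description in which share and total come from the same library. For a count of 0 the floor is taken as 3 counts of that library's total. Such floors cover counting error only. A share is a part of a whole, so more of one genus and less of the others cannot be told apart in these data.

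The genus took from 4.46% to 45.7% of a library. In Sham it held 7.42%, 12.5%, 21.0%, 13.9% and 4.46% of the counts of replicates 1 to 5. In OVX it held 9.36%, 13.7%, 35.2%, 37.1% and 28.5%. OVX replicates 3, 4 and 5 lay above every Sham library, and OVX replicates 1 and 2 lay within the Sham range. In OVX+GEX the shares were 13.7%, 20.0%, 40.8%, 45.7% and 25.8%, so that 3 libraries were above and 2 within the Sham range. In OVX+PBS they were 8.87%, 30.0%, 16.6%, 13.2% and 9.01%, and replicate 2 alone lay above Sham. In OVX+FMT they were 30.2%, 27.6%, 22.8%, 10.2% and 33.5%, with replicate 4 the low one and the other 4 above Sham.

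**Figure D1:**
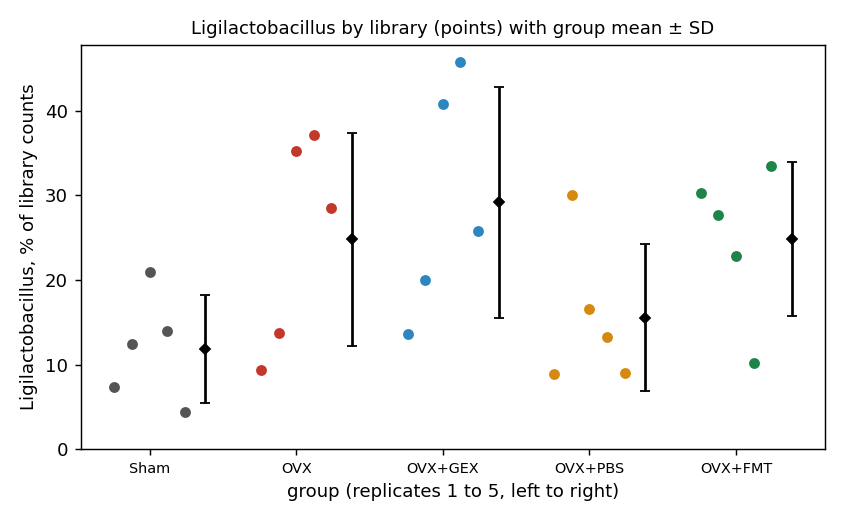
Share of Ligilactobacillus in each library (points, percent of the library's counts, replicates 1 to 5 from left to right) by group, with the group mean and SD as a diamond and bar. Sham libraries lie between 4.46% and 21.0%, and every group overlaps every other.

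The group means stood in the order Sham (11.9% ± 6.37), OVX+PBS (15.6% ± 8.71), OVX (24.8% ± 12.6), OVX+FMT (24.9% ± 9.07) and OVX+GEX (29.2% ± 13.6; SD, n = 5 each). Neighbours in this order lay within each other's spread. OVX+PBS exceeded Sham by 3.70 points (exact permutation p = 0.476) and was lower than OVX by a difference of -9.23 points (exact permutation p = 0.222). With Duncaniella, the most abundant other genus, left out of the totals, these differences were 10.5 and -7.58 points (exact permutation p = 0.0952 and 0.365). As centred log-ratios they were 1.49 and -0.09 (exact permutation p = 0.0238 and 0.905, adjusted p = 0.0694 and 0.905). By all of these measures the mean of OVX+PBS lay between those of Sham and OVX. Its distance from each of them depended on the measure. OVX+FMT was not tested against its neighbours OVX and OVX+GEX. The ends of the order stood farther apart: OVX+GEX exceeded Sham by 17.3 points, with all 5 libraries above the Sham median (exact two-sided permutation p = 0.0397), and OVX+FMT exceeded Sham by 13.0 points, with 4 of 5 above it (exact p = 0.0476). Adjusted over the 7 comparisons made, both had a p of 0.167. OVX exceeded Sham by 12.9 points (exact p = 0.0873, adjusted p = 0.204), OVX+FMT exceeded OVX+PBS by 9.31 points (exact p = 0.135, adjusted p = 0.236), and OVX+GEX exceeded OVX by 4.39 points (exact p = 0.603). No share difference passed 0.05 after adjustment. The comparisons share the Sham, OVX or OVX+PBS libraries and are not independent. These tests did not pair libraries by replicate number. The shares in replicates 1 to 4 were 13.7%, 20.0%, 40.8% and 45.7% in OVX+GEX and 9.36%, 13.7%, 35.2% and 37.1% in OVX. In replicate 5 the share was lower in OVX+GEX, at 25.8% against 28.5%. The labels state no shared origin of same-numbered libraries, and the paired differences were not tested.

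On the log2 scale of the count model, OVX+GEX against Sham was the 1 comparison of 7 in which the genus passed the threshold. Its log2 fold change was 1.95 (SE 0.57, 95% interval 0.78 to 3.12, edgeR's quasi-likelihood adjusted p = 0.0390 over 81 genera). It was 1 of the 4 genera called there, 4.94% of those tested. The call was lost in 7 of 9 other settings and without any 1 of 8 of the 10 libraries compared; with the replicate number as a block, which pairs libraries of these groups that deviated together, it was 1.88 (edgeR adjusted p = 0.0629). Plain library totals gave 1.30 (edgeR adjusted p = 0.257), and leaving out OVX+GEX replicate 4 gave 1.67 (edgeR adjusted p = 0.187). For OVX+FMT against Sham the log2 fold change was 1.84 (SE 0.57, 95% interval 0.67 to 3.01, edgeR adjusted p = 0.0714; 1.23% of genera called), and it passed with DESeq2 (adjusted p = 0.0308), with TMMwsp scaling (edgeR adjusted p = 0.0411) and without OVX+FMT replicate 4 (edgeR adjusted p = 0.0124).

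The remaining estimates did not pass. OVX against Sham gave 1.48 (95% interval 0.33 to 2.63, edgeR adjusted p = 0.279), and OVX+PBS against Sham 1.02 (-0.12 to 2.17, edgeR adjusted p = 0.270). OVX+FMT against OVX+PBS gave 0.82 (-0.32 to 1.95, edgeR adjusted p = 0.427), OVX+PBS against OVX -0.45 (-1.59 to 0.68, edgeR adjusted p = 0.772) and OVX+GEX against OVX 0.47 (-0.66 to 1.61, edgeR adjusted p = 0.906). Each interval of the last 3 holds a rise and a fall of the genus alike. The share of all genera called was 0% in OVX against Sham and in these 3 comparisons, and 1.23% in OVX+PBS against Sham. The median log2 fold change over all genera was 0.15 for OVX against Sham and became -0.22 with plain totals, while that of Ligilactobacillus went from 1.48 to 1.06. For OVX+GEX against Sham the median over genera went from -0.02 to -0.56.

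Within the genus the 6 most abundant variants kept nearly fixed proportions. Each was seen in all 25 libraries, and together they held 92.3% to 100% of the genus. Variant 1 (ASV_2 in the table) took 18.5% ± 0.97 of the genus over the 25 libraries, variant 2 (ASV_3) 17.9% ± 1.23, variant 3 (ASV_5) 15.6% ± 0.93, variant 4 (ASV_6) 15.6% ± 0.88, variant 5 (ASV_9) 14.1% ± 0.88 and variant 6 (ASV_11) 13.7% ± 1.68 (SD over libraries). Drawing the same number of genus counts at fixed proportions would give SDs of 0.96, 0.95, 0.90, 0.90, 0.86 and 0.84. Variants 1, 3, 4 and 5 thus varied about as much as counting alone gives, and variants 2 and 6 more. The libraries in question differed in their genus counts from 452 to 6768.

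**Figure D2:**
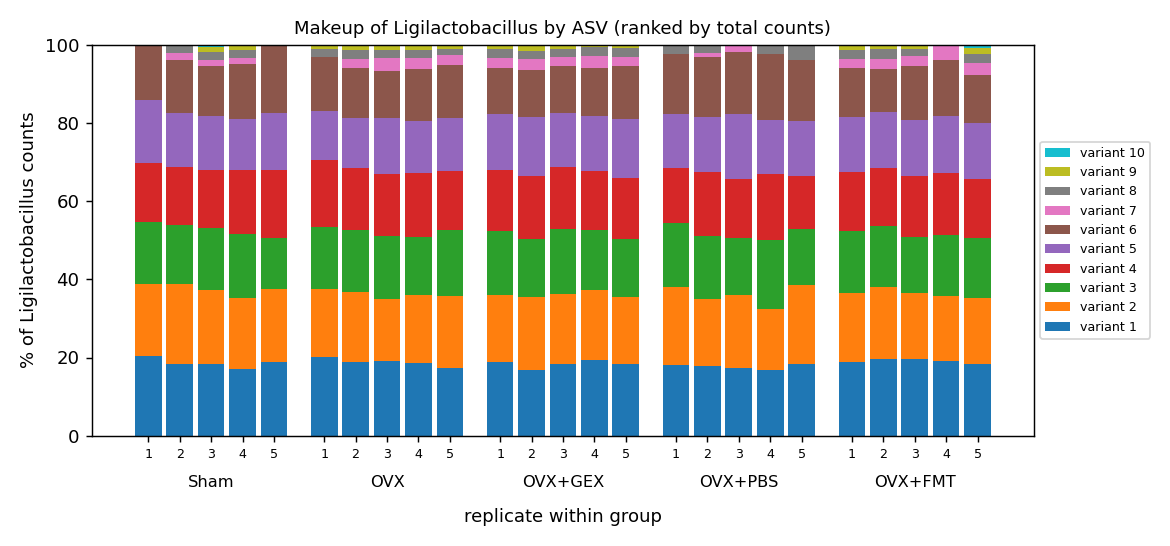
Makeup of Ligilactobacillus in each library, as stacked percent of the genus counts held by variants 1 to 10, by group and replicate. The bands of variants 1 to 6 keep similar heights in all 25 libraries, and the thin bands of variants 7 to 10 at the top are missing in Sham replicates 1 and 5.

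A pooled measure of this spread was far larger in other genera. Pearson's chi-square per degree of freedom for the proportions of the 6 leading ASVs over the libraries, which is near 1 where counting error alone is at work, was 1.57 in Ligilactobacillus. It was 31.2 in Duncaniella, 35.7 in Anaerobacterium, 55.3 in Acetivibrio and 108.1 in Ruminococcus, the other 4 genera whose 6 leading ASVs held at least 5000 counts. Those genera held 24 to 162 ASVs, and their species were not counted here, while the 10 of Ligilactobacillus carried 1 species name. In Duncaniella, as in Ligilactobacillus, all 6 were seen in every library, and in Ruminococcus there was no library with all 6. Shares of all counts moved together for the 6 leading variants of Ligilactobacillus: over the 15 pairs, Pearson r across the 25 libraries ran from 0.970 to 0.994. These values describe ASVs that share libraries and depth.

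Variants 7 to 10 were rarer and not always seen. Variant 7 (ASV_34) held 2.22% of the genus counts and was seen in 19 libraries, variant 8 (ASV_36) 2.06% in 21 libraries, variant 9 (ASV_70) 0.985% in 16 libraries, and variant 10 (ASV_308) 0.140% in 2 libraries, with 25 counts in Sham replicate 3 and 64 in OVX+FMT replicate 5. The 15 libraries with all of variants 1 to 9 held at least 1454 genus counts, and the 10 libraries that lacked 1 or more held 452 to 3379. The smallest count above 0 for any member was 12, whereas 48.4% of all values above 0 in the table were under 12. The authors' treatment of rare sequences beside abundant ones is not given in the labels or the table.

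Variant 9 was at 0 in all 5 OVX+PBS libraries. It had 12, 21, 44, 52 and 30 counts in OVX replicates 1 to 5 and 16, 34, 38, 27 and 21 in OVX+GEX. In OVX+FMT it had 96, 34, 25, 0 and 93, and in Sham 0, 0, 39, 43 and 0. The OVX+PBS libraries held 796 to 3379 genus counts, and at the share of variant 9 over all libraries they would have held 85.6 of its counts in all, 33.3 of them in replicate 2, whose genus counts were higher than those of 3 of the 5 OVX+GEX libraries. OVX and OVX+PBS did not overlap for this variant, as for 0.528% of the 379 ASVs tested. Against a floor of 3 counts per OVX+PBS library, a mean share of 0.0287%, variant 9 was 11.1-fold higher in OVX (0.320% ± 0.177 of all counts). It was 9.96-fold higher than that floor in OVX+GEX (0.286% ± 0.113) and 10.2-fold higher in OVX+FMT (0.294% ± 0.186, SD, n = 5). The ratio for Sham, where 3 libraries were at 0, was 2.90-fold (0.0833% ± 0.115). The smallest count above 0 of any member was 12. These ratios would be lower at a higher floor, so they are not firm lower bounds. By edgeR's quasi-likelihood test over 379 ASVs the adjusted p was 0.0659 for OVX+PBS against OVX, 0.0661 for OVX+FMT against OVX+PBS and 0.107 for OVX+PBS against Sham. DESeq2 placed variant 9 past the threshold in these 3 comparisons (adjusted p = 0.000602, 0.000381 and 0.0197), and limma on centred log-ratios in none of them (adjusted p = 0.0535, 0.165 and 0.513). The share of all 379 ASVs that DESeq2 or limma called was not counted, so how common such calls were is not known here.

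Variant 7 was also scarce in OVX+PBS. Its share of the genus was 0%, 1.07%, 1.85%, 0% and 0% in OVX+PBS replicates 1 to 5, against 2.38% to 3.04% in OVX+GEX and 2.33% to 4.02% in OVX+FMT, where it was seen in every library. In OVX it was 0% in replicate 1 and 2.24% to 3.40% in the other 4, and in Sham it was 0% in replicates 1 and 5 and 1.5% to 1.97% in the other 3. OVX+PBS replicate 1 held 1929 genus counts, which at the share of variant 7 over all libraries would be 42.8 counts of it, and it held 0. In the model over all ASVs, variant 7 had an edgeR adjusted p of 0.360 for OVX+PBS against OVX and of 0.359 for OVX+FMT against OVX+PBS. Variant 8 did not share this pattern: it was seen in 4 of 5 OVX+PBS libraries, at 2.01% to 4.02% of the genus, and was at 0 in OVX+PBS replicate 3, OVX+FMT replicate 4 and Sham replicates 1 and 5.

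**Figure D3:**
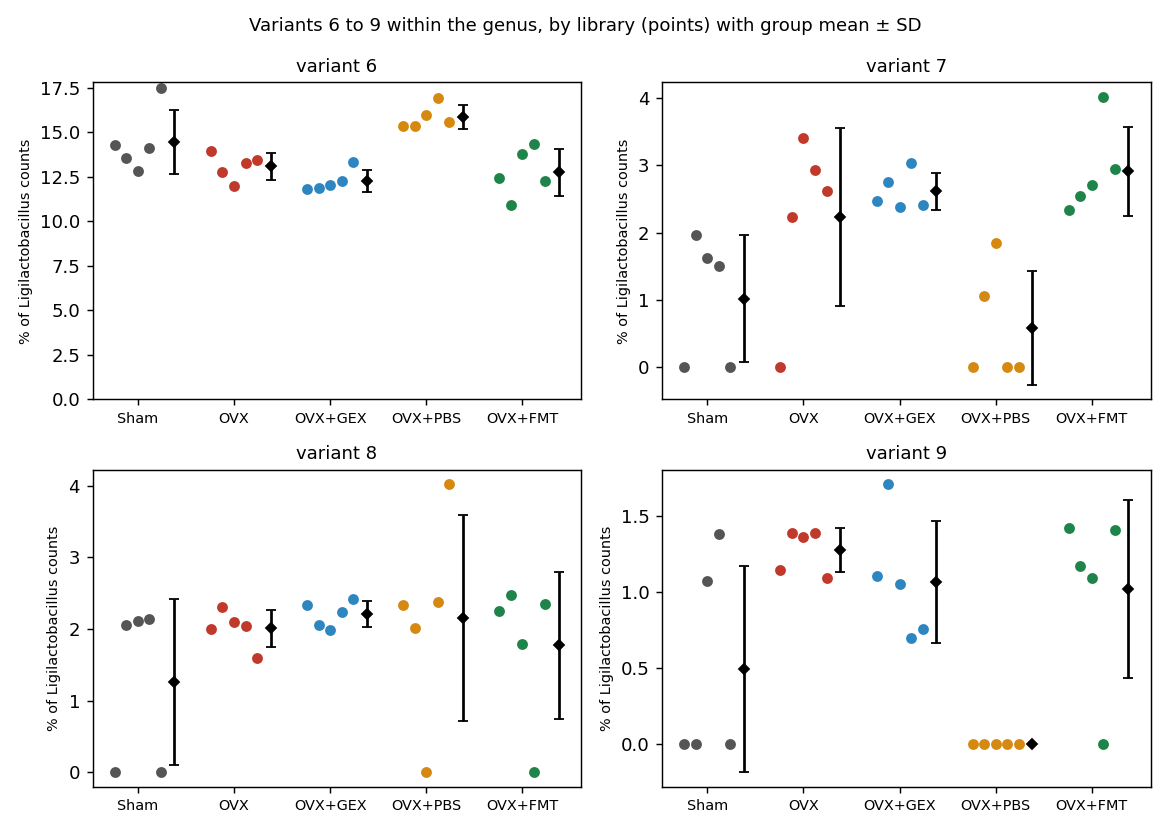
Variants 6 to 9 as percent of the Ligilactobacillus counts in each library (points, replicates 1 to 5 from left to right), with group mean and SD as a diamond and bar. In OVX+PBS variant 6 lies between 15.3% and 16.9%, variant 9 is at 0 in all 5 libraries and variant 7 at 0 in 3; bars that reach below 0 show only the size of the SD.

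Variant 6 held a larger part of the genus in OVX+PBS than in the other OVX groups. It held 15.3%, 15.4%, 16.0%, 16.9% and 15.6% of the genus in OVX+PBS replicates 1 to 5. Its range was 12.8% to 17.5% in Sham, and it was 10.9% to 14.3% in OVX+FMT, 11.8% to 13.3% in OVX+GEX and 12% to 14.0% in OVX. The part of variant 6 was set beside the others after its values were seen, and it was not tested. Across the 25 libraries its share of the genus had a Pearson r of -0.69 with that of variant 7 and of -0.77 with that of variant 9, against -0.34 with variant 8; shares of 1 whole push each other down, and the points share the libraries' depth. The sum of variants 6, 7 and 9, chosen after these values were seen and therefore not tested, was 16.0% ± 1.29 in Sham, 16.6% ± 0.94 in OVX, 15.9% ± 0.50 in OVX+GEX, 16.4% ± 1.02 in OVX+PBS and 16.7% ± 1.41 in OVX+FMT (SD, n = 5). Over all libraries the SD was 1.68 for variant 6 alone and 1.04 for the sum, where counting error would give 0.92. Within groups the SD of the sum was below that of variant 6 in Sham and OVX+GEX and above it in the other 3, at 0.94 against 0.74 in OVX, 1.02 against 0.67 in OVX+PBS and 1.41 against 1.34 in OVX+FMT.

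Each OVX+PBS library held 7 or 8 variants and each OVX library 8 or 9. The expected number in 452 genus counts, the lowest genus count of any library, was 7.20 ± 0.445 in OVX+PBS and 8.80 ± 0.447 in OVX (SD, n = 5). It differed from the number seen by at most 0.0421 in any library, so drawing to a common count left the numbers nearly as they were and does not make the libraries' depths equal. The test of the expected number passed (exact two-sided permutation p = 0.00794, which no split can undercut, and adjusted p = 0.0317 over 4 comparisons), but the groups were set apart by 7.994 in OVX+PBS replicate 2 against 7.999 in OVX replicate 1, both of which held 8 variants. With the number seen these 2 libraries tie, and the adjusted exact p was 0.0635. It was 8.80 ± 1.09 in OVX+FMT, above OVX+PBS by 1.60 variants (exact permutation p = 0.0238, adjusted p = 0.0476; lost without any 1 of 8 of the 10 libraries, at an adjusted exact p of up to 0.127), with 4 of 5 OVX+FMT libraries above every OVX+PBS library and OVX+FMT replicate 4 at 7.0. The number seen also differed by 1.6 between OVX+FMT and OVX+PBS, with an adjusted exact p of 0.0952. Both comparisons use the same OVX+PBS libraries, and the OVX+PBS call was lost without any 1 of 4 of them, the adjusted exact p then being 0.0635.

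The other comparisons of this number did not pass. Sham averaged 7.79 ± 1.78 and OVX 8.80 ± 0.447 (exact permutation p = 0.254, adjusted p = 0.339). Sham replicates 1 and 5 held 6.0 variants each and the other 3 Sham libraries 8.0 to 9.96. These 2 Sham libraries had the lowest genus counts of all, 722 and 452. The expected counts of variants 7 to 9 were 7.11 to 16.0 in replicate 1 and 4.45 to 10.04 in replicate 5. OVX+GEX averaged 8.99 ± 0.0151 and was the 1 group in which every library held all of variants 1 to 9 (exact permutation p = 0.937 against OVX).

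Variant 1 took a larger part of the genus in OVX+FMT than in OVX+PBS. It held 18.9%, 19.7%, 19.6%, 19.1% and 18.3% in OVX+FMT and 18.0%, 17.7%, 17.4%, 16.9% and 18.2% in OVX+PBS, with no overlap. The difference was 1.47 points (exact two-sided permutation p = 0.00794, adjusted p = 0.0317 over 4 comparisons). The SDs were 0.578 in OVX+FMT and 0.528 in OVX+PBS. Over the 25 libraries variant 1 varied about as much as counting alone gives, with an SD of 0.972 against 0.963. Variants 1 and 2 summed differed by 0.406 points (adjusted exact p = 0.952), with variant 2 at a mean of 17.3% in OVX+FMT and of 18.4% in OVX+PBS. Without any 1 of the 5 OVX+PBS libraries the adjusted exact p was 0.0635. Variant 1 differed by -1.18 points between OVX+PBS and OVX (adjusted exact p = 0.127), by -0.463 between OVX+GEX and OVX (adjusted exact p = 0.677) and by 0.232 between OVX and Sham (adjusted exact p = 0.683).

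As shares of all counts, the variants mostly had estimates of the same sign within a comparison. Of the 10 variants 9 were seen often enough to be tested among 379 ASVs, and variant 10 was not. Against Sham, all 9 had a higher estimate in OVX (median log2 fold change 0.86, range 0.69 to 1.74), where 42.2% of all ASVs had one and their median was -0.27. All 9 were higher in OVX+GEX than in Sham (median 1.11, against -0.31 for all ASVs, 37.2% of them positive) and in OVX+FMT than in Sham (median 1.01, against -0.41, with 38.8% positive). All 9 were higher in OVX+FMT than in OVX+PBS (median 0.85, against 0.48, with 59.9% positive), and 0 of 9 were higher in OVX+PBS than in OVX (median -0.78, against -0.48, with 34.3% positive). For OVX+GEX against OVX 8 of 9 were higher, with a median of 0.23 (all ASVs -0.07, with 47.2% positive). For OVX+PBS against Sham 7 of 9 were higher, with a median of 0.09 (all ASVs -0.92, with 32.5% positive). The 9 variants come from the same libraries and their shares are correlated, so these counts are not 9 separate measurements.

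**Figure D4:**
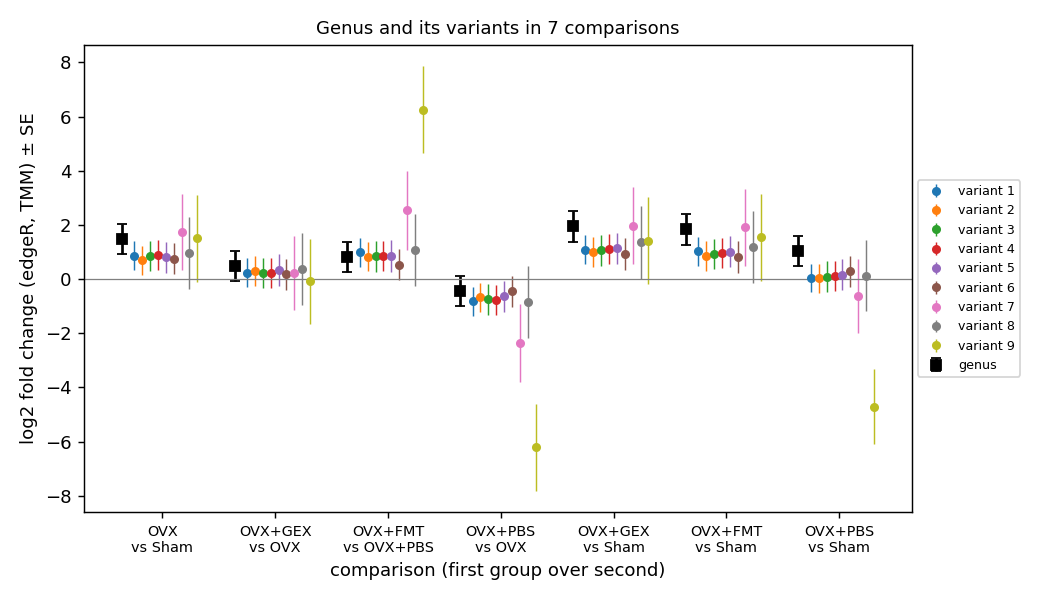
Log2 fold change with its standard error for the genus (squares, from the fit over genera) and for variants 1 to 9 (points, from the fit over ASVs) in the 7 comparisons. Variants 1 to 6 lie close together in each comparison, and the low or high points near 6 are variant 9, whose fitted value rests on 0 counts in OVX+PBS and is no measure of size.

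None of the 9 variants passed edgeR's threshold in any of the 7 comparisons. The number at an unadjusted p under 0.05 was 1 in OVX+FMT against OVX+PBS, OVX+PBS against OVX and OVX+PBS against Sham, variant 9 each time. It was 1 in OVX+GEX against Sham, variant 1 (estimate 1.09 on the log2 scale, with an SE of 0.53 and an edgeR adjusted p of 0.260), and 0 in the other 3. Among all ASVs tested that p was reached by 17.2% in OVX against Sham, 19.3% in OVX+GEX against OVX, 21.1% in OVX+FMT against OVX+PBS, 24.8% in OVX+PBS against OVX, 18.2% in OVX+GEX against Sham, 19% in OVX+FMT against Sham and 25.6% in OVX+PBS against Sham. Of all 379 ASVs, 1.06% were called in OVX+FMT against Sham and 0% in the other 6. The estimates of variants 1 to 6 in OVX against Sham, 0.69 to 0.88, were below the 1.48 of the genus; the genus and ASV tables were scaled separately. With plain totals in both, the genus gave 1.06 and the median variant 1.08.

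Ligilactobacillus made up nearly all of the lactic acid bacteria. Of 17 genera on a list of lactic acid bacteria and bifidobacteria, 5 had counts, and Ligilactobacillus held 92.0% to 99.7% of them in each library. Lactobacillus had 1167 counts in 24 libraries, Bifidobacterium 198 in 6, Lactococcus 46 in 10 and Enterococcus 5 in 1. Of the 4 list genera tested, Ligilactobacillus in OVX+GEX against Sham was the 1 that passed in any of the 7 comparisons. In that comparison the log2 estimate for Lactobacillus was -0.66 with an SE of 0.93 (edgeR adjusted p = 0.893). Against Sham, Lactobacillus was at 2.05 in OVX, 2.07 in OVX+FMT and 2.71 in OVX+PBS (edgeR adjusted p = 0.406, 0.233 and 0.132). These estimates were higher than those of Ligilactobacillus in the same comparisons. Among the Firmicutes, the phylum it belongs to, Ligilactobacillus held 14.7% ± 7.89 of the counts in Sham, 33.9% ± 15.6 in OVX, 38.3% ± 16.5 in OVX+GEX, 26.6% ± 9.65 in OVX+PBS and 37.3% ± 16.2 in OVX+FMT (SD, n = 5).

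The most abundant other genus was Duncaniella, an anaerobe of the Muribaculaceae. Against Sham its log2 estimate was also above 0, at 1.26 in OVX, 1.08 in OVX+GEX, 1.60 in OVX+FMT and 2.33 in OVX+PBS. None of these passed (edgeR adjusted p from 0.0645 to 0.708). Ligilactobacillus was the most abundant genus in 12 libraries and the next in 9, and it outnumbered Duncaniella in 13 of 25. The log2 ratio of Ligilactobacillus to Duncaniella was -0.01, 0.90, -0.04, 0.10 and -0.07 in OVX+FMT replicates 1 to 5, so 4 of these libraries held nearly equal counts of both. In OVX+PBS it was -1.67, 0.50, -0.57, -1.76 and -2.78, and in OVX+GEX -0.88, 3.41, 2.71, 2.25 and -0.62. OVX+PBS was thus mostly on the side of Duncaniella, and OVX+GEX was split, with 3 libraries at least 2.25 above and 2 below 0. In Sham the ratio ran from -1.68 to 0.85 and in OVX from -2.28 to 1.02. With Duncaniella left out of the totals, OVX+GEX exceeded Sham by 21.5 points and OVX+FMT exceeded Sham by 20.1 points, each with an adjusted exact permutation p of 0.111. On these totals OVX+PBS exceeded Sham by 10.5 points (adjusted exact permutation p = 0.167).

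**Figure D5:**
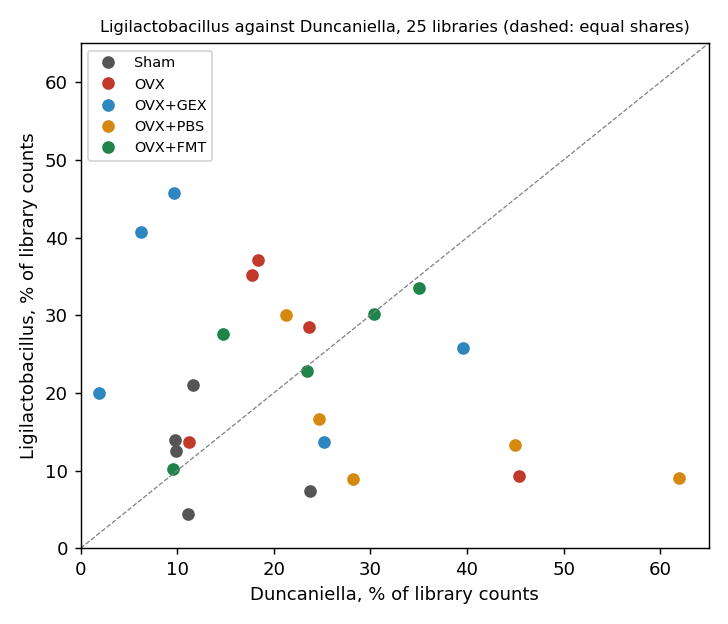
Ligilactobacillus against Duncaniella as percent of library counts in 25 libraries, coloured by group, with a dashed line of equal shares. Ligilactobacillus lies above the line in 13 libraries, and 4 of 5 OVX+PBS libraries lie below it.

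Some genera followed Ligilactobacillus across libraries. By Spearman correlation of TMM-scaled log2 CPM over the 25 libraries, the 3 most alike of the other 80 genera were Romboutsia (rho 0.78, Pearson r 0.76), Turicibacter (rho 0.61, r 0.66) and Adlercreutzia (rho 0.54, r 0.53). Romboutsia and Turicibacter are Firmicutes of the gut, and Adlercreutzia holds members known to form equol from soy isoflavones. Romboutsia averaged 0.135% of the counts and was seen in 18 libraries, and its r was 0.72 without Sham replicate 5 and OVX+FMT replicate 5, the libraries farthest from the median of Ligilactobacillus. After the group means were taken out, rho was 0.53 for Romboutsia, 0.26 for Turicibacter and 0.19 for Adlercreutzia. Lactobacillus, named here after the values were seen, then had the highest rho and r of the 80 genera (rho 0.80, r 0.85), against a rho of 0.46 and an r of 0.53 with the group means left in. The 3 least alike were Sinanaerobacter (rho -0.59, r -0.54), Lacrimispora (rho -0.55, r -0.45) and Faecalimonas (rho -0.55, r -0.61), clostridia of low abundance here. These are descriptions over libraries that share depth and scaling, picked as extremes among 80 genera.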

How the data were processed

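The authors deposited 1 table of read counts per ASV with a taxonomy of 7 ranks, converted from a BIOM file per the file headers. The submitters' processing notes name Subread, without a version; denoiser, primers, taxonomy database and filtering: not given in the sources used here. All 25 columns were matched by name, and 5 spelled OVX+GES were taken as OVX+GEX; unmapped columns numbered 0. No library was a copy of another: over all 300 pairs the Bray-Curtis distance was 0.266 or more. By replicate number, libraries deviated together (all 5 correlations over 0.1) in 3 of 10 pairs of groups, Sham with OVX+GEX (0.11 to 0.28), OVX with OVX+GEX (0.14 to 0.21) and OVX+GEX with OVX+PBS (0.12 to 0.32); the labels state no shared origin.

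Counts were summed per genus. Those genera and ASVs (81 and 379) that reached 3 counts in 5 or more libraries were tested with edgeR 4.0.16 (R 4.3.3, TMM, quasi-likelihood F test, all 25 libraries in 1 fit, Benjamini-Hochberg threshold 0.05), with DESeq2 1.42.0 and limma 3.58.1 as alternatives. The fits were tested on simulated data. SEs came from the F statistic. Single values per library were compared by exact two-sided permutation over 252 splits (5 against 5), adjusted over 7 comparisons for the genus share and 4 for measures within the genus. Named were the genus, its species, its 5 most abundant and any called or group-specific ASV, Duncaniella, the lactic acid genera kept, and 3 genera each most and least alike; other ASVs were named after their values were seen. The members, lists and tests were chosen with earlier results of these data known. The share of the genus outside its most abundant species was to be compared, but there was 1 species.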

Additional observations from a re-analysis of the deposited data

Results flagged for a closer look

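Of 60 sets of 5 libraries tested for a single library far from the rest (the genus share, the part of variant 1, the expected number of variants, and variants 1 to 9 as percent of the genus, in each group), 6 had one. Chance gives about 1 in 20 for normally distributed values. The expected number of variants lay near whole numbers, and the rarer variants were at 0 in some libraries. The 6 therefore cannot be set against that rate. In OVX+FMT, replicate 4 stood apart with variants 8 and 9 at 0% of the genus; at 970 it also had the lowest genus count of its group. In the expected number of variants, OVX replicate 1 was the low library of its group at 8.0, and OVX+PBS replicate 2 the high one of its group at 7.99. Variant 5 was at 16.4% of the genus in OVX+PBS replicate 3, above the other 4 libraries of that group. Variant 6 was at 13.3% of the genus in OVX+GEX replicate 5, above the other 4 of that group.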

How the results depend on the processing

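All 21 other settings and all 70 omissions of 1 library left the genus share differences in their direction and short of the threshold. The log2 fold change of the genus kept its sign in all settings. For OVX+GEX against Sham it missed the threshold with DESeq2 size factors (1.86, edgeR adjusted p = 0.0763), TMMwsp (1.91, 0.0702), limma on centred log-ratios (1.98, 0.174), no filter (1.61, 0.186), only the groups compared (1.98, 0.121), plain totals (1.30, 0.257) and the replicate block (1.88, 0.0629); it ran from 1.67 to 2.29 when 1 library was left out. For OVX+FMT against Sham it passed with DESeq2 (1.68, adjusted p = 0.0308) and TMMwsp (2.04, 0.0411), and ran from 1.62 to 2.18 when 1 library was left out.

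The count of variants past the threshold was 0 in edgeR and became 1, variant 9, with DESeq2 for OVX+FMT against OVX+PBS, OVX+PBS against OVX and OVX+PBS against Sham. It also became 1 for OVX+PBS against OVX with TMMwsp (edgeR adjusted p = 0.0477) and a minimum count of 10 (0.0304), and for OVX+FMT against OVX+PBS without OVX+FMT replicate 4 (0.0421), a range of 0 to 1 over omissions. The share of all genera or ASVs called was counted for the main edgeR fit only.

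The part of variant 1 in OVX against Sham turned to -1.36 points when variants 1 and 2 were summed and ran from -0.142 to 0.675 when 1 library was left out. For OVX+FMT against OVX+PBS it was 0.406 for the sum and 1.27 to 1.68 over omissions. For OVX+PBS against OVX it ran from -1.56 to -0.826 and passed without OVX replicate 5 (adjusted exact permutation p = 0.0159). The expected number of variants ran over omissions from 1.30 to 2.05 for OVX+FMT against OVX+PBS, from -1.80 to -1.55 for OVX+PBS against OVX and from -0.0115 to 0.239 for OVX+GEX against OVX. Variants seen at full depth differed by 1.6 (OVX+FMT against OVX+PBS) and -1.6 (OVX+PBS against OVX), and the inverse Simpson index by -0.307 for OVX+PBS against OVX (adjusted exact permutation p = 0.0635). The cause of these changes was not tested.

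Replicate numbers 1 to 5 recur in every group. Over 50 same-numbered pairs the correlation ran from -0.30 to 0.35, and all 5 were over 0.1 in 3 of 10 pairs of groups. With the replicate block the OVX+GEX against Sham call of the genus was lost (1.88, edgeR adjusted p = 0.0629), and no other edgeR call on the genus or its variants changed; the permutation tests were not run with a block. In Sham replicate 5, with 452 genus counts, variants 7 to 9 would have 4.45 to 10.04 counts each at their overall shares. In Sham replicate 1, with 722 genus counts, they would have 7.11 to 16.0 counts each. None of them was seen in either library. OVX+PBS replicate 2 lacked variant 9 at 3379 genus counts. The cause of these absences was not tested.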
